A study of Arabidopsis thaliana with 12 samples.

Results

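The transcripts described here fell within 30 min of nitrate supply in roots of wild-type Arabidopsis thaliana and also in those of chl1-5, which lacks the nitrate transporter CHL1. They were read on Affymetrix ATH1 arrays, on which a probe set is a group of short probes that together report 1 transcript as 1 signal. A probe set was taken when its mean log2 signal at T0.5 lay at least 0.8 below that at T0 in each genotype, all 3 T0.5 arrays lay below all 3 T0 arrays in each, and its mean T0 signal reached 100 in both. These conditions were met by 94 of 22746 non-control probe sets. The rule also leaves out AT1G21550, AT1G21590, NRT2.5 and symbols beginning EXP, UGT or CYP, which removed 4 (AT1G21550, AT1G21590, EXPA9 and EXPA15) and left 90 members, or 0.396% of the probe sets. The members were thus chosen by their own nitrate responses and T0 signals in both genotypes, so the falls below are a description with no test, and for a member "fell" means only that it was lower at T0.5.

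There were 3 arrays in each of 4 groups. Wild-type and chl1-5 plants, both Columbia and grown side by side on the same mesh, were 10 days old and had received 12.5 mM ammonium succinate as their only nitrogen. The T0 groups were collected after a further 3 h in that nitrogen source at pH 5.5, and the T0.5 groups after an additional 30 min in 25 mM KNO3 without ammonium. The labels name these groups wild-type T0, wild-type T0.5, chl1 T0 and chl1 T0.5. A replicate was a separate experiment that pooled 9 vessels, or about 900 seedlings. The change from T0 to T0.5 holds the arrival of nitrate, the removal of ammonium succinate, washing and a move to fresh medium, which cannot be told apart here. The chl1-5 allele is a deletion, so the mutant lacks CHL1 function, but CHL1 had no named probe set and the genotype was not checked by its signal. Whole roots were measured, so fewer cells of a type and less RNA per cell cannot be told apart either.

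Nitrate is both a nutrient and a signal for plant roots. CHL1, also called NRT1.1 or NPF6.3, carries nitrate into root cells and acts as a sensor that adjusts the first transcriptional answer. Induced transcripts of that answer serve nitrate uptake, reduction and the supply of reducing power, and nitrate-induced repressors of the NIGT1/HHO family turn other genes down.

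Of the 90 members, 40 belonged to a single locus in the platform annotation and 1 to several genes. The other 49 were not listed there and are given by their probe set number. Among the 40, 32 encode proteins whose family is well known. These fall into 7 regulators of genes and protein turnover, 8 signalling proteins and 5 enzymes grouped under the cell wall and glycans. That last group takes in MMP, which is a protease. The rest are 10 other metabolic enzymes and 2 transport proteins. This grouping was made after the members were seen and was not tested. No locus had a second probe set.

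The falls were moderate in size, with the larger median in wild type. In wild type the members ranged from 1.78-fold to 8.43-fold lower at T0.5, with a median log2 change of -1.20. In chl1-5 they ranged from 1.74-fold to 8.92-fold, with a median of -1.02. Over all 22746 probe sets the median change was -0.09 and -0.03. In wild type 73 members were at least 2-fold lower, where 4.86% of all probe sets were, and 8 were at least 4-fold lower. In chl1-5 the counts were 45 (3.48% of all probe sets were at least 2-fold lower) and 4, and 42 members were 2-fold lower in both. No share over all probe sets was worked out for the 4-fold counts or for the 42. The condition that all T0.5 arrays lie below all T0 arrays was met by 13.5% of all probe sets in wild type, by 8.98% in chl1-5 and by 4.03% in both. The rule used these contrasts, so nothing is read from the difference between the members and the whole.

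**Figure D1:**
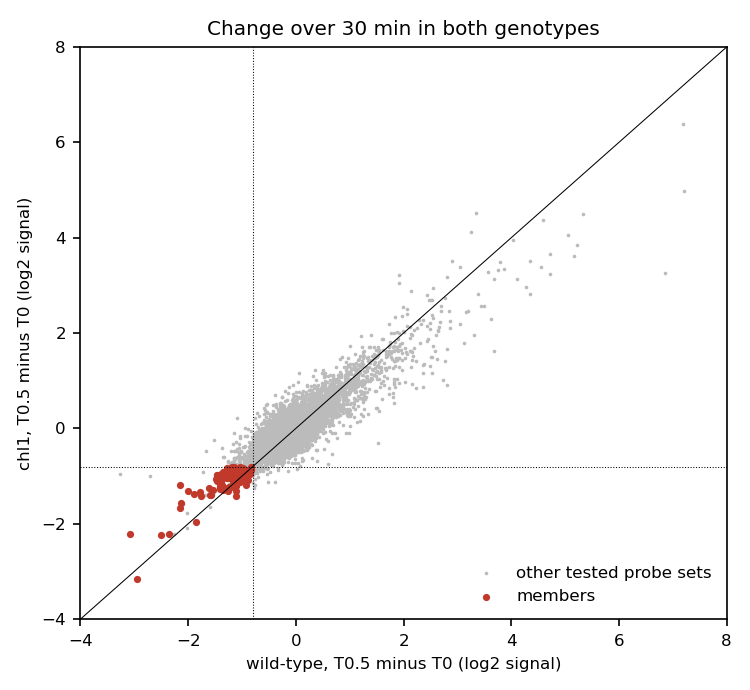
Change in mean log2 signal from T0 to T0.5 in wild type (x axis) and in chl1-5 (y axis) for each of 14291 tested probe sets, with the 90 members in red, the rule's thresholds of -0.8 dotted and equal change as the solid line. The members fill the corner below both thresholds. Of the 90, 69 lie above the line of equal change, as do 56.1% of all tested probe sets.

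Of the regulators, AT5G01720 encodes RAE1, an F-box protein that marks the transcription factor STOP1 for breakdown. Its signal was 638.9, 591.2 and 567.0 on the wild-type T0 arrays and 273.5, 188.8 and 152.5 at T0.5. In chl1-5 it went from 659.5, 668.8 and 556.4 to 314.3, 264.7 and 158.6. The 3.01-fold and 2.65-fold falls left every T0.5 array under 315 and every T0 array above 556, with tight T0 groups.

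AT4G17670 belongs to the FLZ zinc finger family, small proteins that bind the energy-sensing kinase SnRK1. Its wild-type signal went from 815.5, 1092.3 and 835.9 to 290.1, 237.3 and 166.1, a 4.02-fold fall. In chl1-5 it went from 1027.7, 1091.9 and 627.9 to 465.8, 403.0 and 246.2, a 2.48-fold fall. The T0 means were alike (915 ± 154 and 916 ± 251, SD, n = 3), and the smaller fall in chl1-5 came with a higher T0.5 level. This is a description only.

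The histone H2B family gene AT2G28720 had tight groups, at 606.4, 565.9 and 595.6 against 272.1, 251.2 and 273.2 in wild type. In the mutant it read 662.0, 538.8 and 692.2 against 382.5, 320.8 and 318.3. All 3 chl1-5 T0.5 arrays lay above all 3 wild-type T0.5 arrays, while the T0 groups overlapped. The gene is shown here for its genotype difference, so that gap is a description. Its direct neighbour in the gene order, the C2H2 zinc finger gene AT2G28710, fell by 1.16 and 0.89 on the log2 scale, close to the 1.15 and 0.89 of AT2G28720. HIS1-3, a linker histone known to rise in drought, went from 1276 ± 346 to 596 ± 113 in wild type, and its chl1-5 means were 1360 ± 203 and 686 ± 148. The AP2/ERF transcription factor gene AT1G36060 fell 2.62-fold and 1.94-fold, and the RING protein gene AT5G55970, a likely ubiquitin ligase, 2.58-fold and 1.95-fold.

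Among the signalling genes, AT3G47480 encodes an EF-hand protein, a class that binds calcium. It read 566.0, 567.4 and 338.7 in wild type before nitrate and 44.2, 193.5 and 273.8 after. In chl1-5 it read 786.4, 454.3 and 366.8 before and 75.1, 130.6 and 227.9 after. It was among the 21 members whose fall was larger in chl1-5 (3.88-fold) than in wild type (3.59-fold), and the fall was far deeper in replicate 1 (log2 -3.68 and -3.39) than in replicate 3 (-0.31 and -0.69).

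The small monomeric G proteins SGP1 and SGP2 were both members. SGP1 went from 1343.7, 1097.5 and 914.0 to 629.0, 399.3 and 382.0 in wild type. In the mutant it went from 1433.1, 1130.8 and 866.8 to 734.5, 604.3 and 366.9. SGP2 went from 374.4, 329.0 and 226.3 to 180.8, 153.3 and 92.7 in wild type, and in the mutant from 463.2, 343.7 and 238.6 to 199.6, 176.7 and 117.1. Replicate 1 was the highest and replicate 3 the lowest array in all 4 groups for both genes, and their falls were alike (log2 -1.27 and -1.15 in wild type, -1.04 and -1.07 in chl1-5).

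Transcripts of a pair of TIR domain genes, a domain found in plant immune receptors, fell as well. AT1G57630 varied widely before nitrate, with 754.3, 533.7 and 218.0 in wild type against 196.3, 155.9 and 109.3 at T0.5. The mutant gave 743.0, 485.3 and 346.3 against 220.4, 189.0 and 166.8. The lowest T0 array of wild type stood only a little above the highest T0.5 array. AT1G72890 fell 2.63-fold in wild type, from 695 ± 128 to 264 ± 45.6, and 2.14-fold in chl1-5.

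The protein kinase family genes AT1G66930 and AT1G61590 were the steadiest signalling members. AT1G66930 read 312.4, 375.8 and 353.3 against 154.2, 119.3 and 163.7 in wild type. The mutant gave 335.7, 400.3 and 413.5 against 175.8, 142.2 and 147.1. Both genotypes gave almost the same picture, with falls of 2.40-fold and 2.47-fold. AT1G61590 read 1447.1, 1416.8 and 1451.9 against 822.4, 622.8 and 728.8 in wild type, and 1462.3, 1322.2 and 1465.0 against 835.9, 694.9 and 661.5 in chl1-5, which is 2.00-fold and 1.95-fold. The glutamate receptor family gene ATGLR1.2, a ligand-gated channel by family, went from 150.2, 138.1 and 111.1 to 33.1, 63.6 and 53.0 in wild type. Its chl1-5 signals were 158.2, 148.2 and 124.7 before and 64.5, 67.0 and 68.3 after. Its T0.5 signals were dim, here meaning under the 40th percentile of the array on all 3 arrays, so its fold rests on weak signals.

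**Figure D2:**
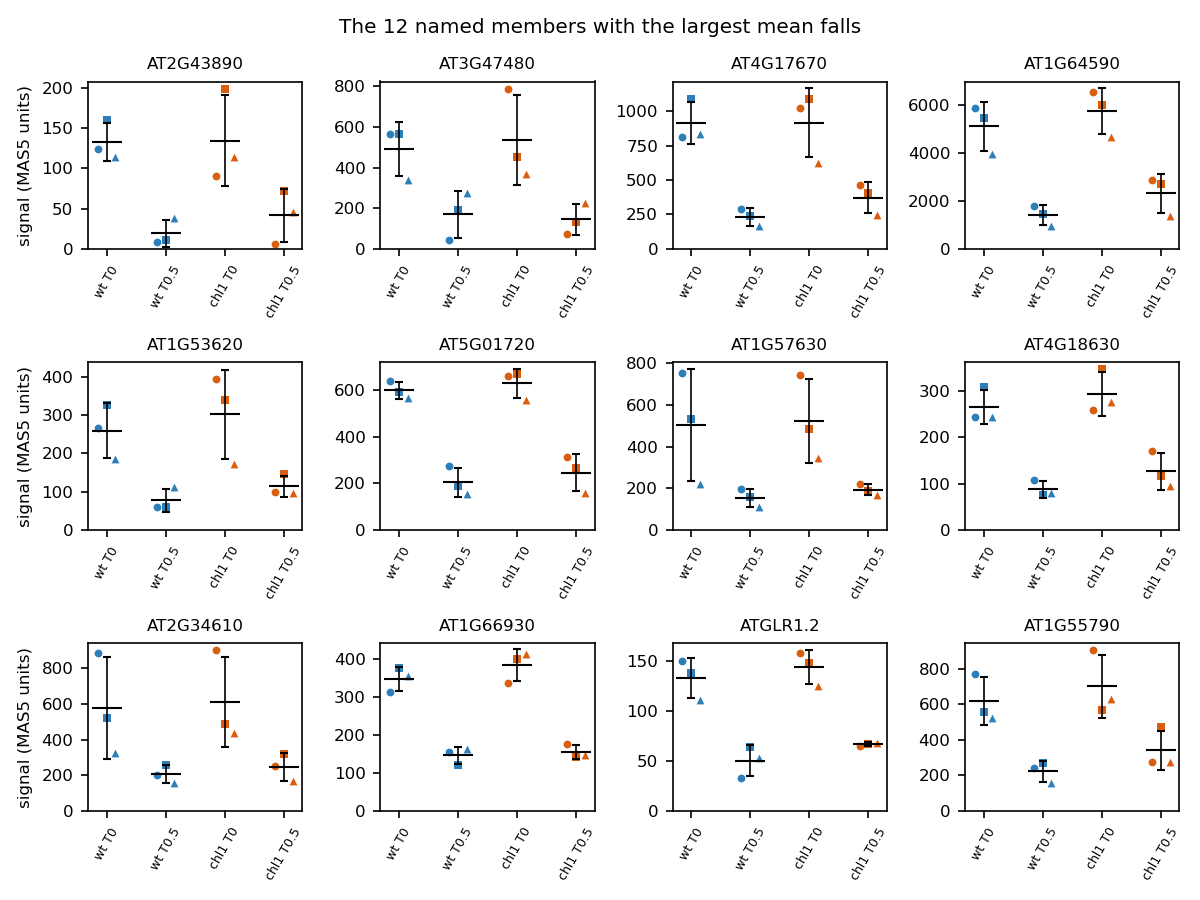
Signal in MAS5 units (y axis, from 0) on each array for the 12 named members with the largest mean falls, by group (x axis), with circles, squares and triangles for replicates 1, 2 and 3 and black bars for the mean and SD of 3 arrays. In every panel both T0.5 groups lie below the T0 groups of their genotype, and for AT1G57630 and AT2G34610 the T0 arrays spread widely.

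The largest fall of a named member was that of AT2G43890, which encodes a pectin-lyase-like protein, a fold shared by enzymes that cut the pectin of cell walls. It read 124.4, 159.7 and 114.3 at T0 and 8.8, 11.1 and 38.8 at T0.5 in wild type. In chl1-5 it read 90.3, 198.0 and 113.8, then 6.1, 72.2 and 46.2. Both T0.5 groups were dim, so the 8.43-fold and 4.64-fold falls are imprecise. The next gene in the gene order, AT2G43880, is of the same family and fell 2.19-fold in wild type, from 410.5, 350.7 and 239.3 to 162.4, 151.3 and 134.4. In chl1-5 it fell 2.06-fold, from 342.4, 427.7 and 290.8 to 177.6, 179.7 and 152.4. This pair and the AT2G28710 pair were the only member loci that lay next to each other in the order of protein-coding genes, with 40 loci compared.

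The other genes of the wall and glycan group fell 1.78-fold to 2.24-fold. The matrix metalloproteinase gene MMP went from 757 ± 160 to 348 ± 35.1 in wild type, and its chl1-5 means were 756 ± 86.5 and 426 ± 99.1. The glycosyltransferase gene AT3G57380 fell 2.24-fold and 1.98-fold, and the galactosyltransferase family gene AT2G32430 1.78-fold and 1.82-fold.

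AT1G64590, of the short-chain dehydrogenase family, gave bright signals throughout. It read 5873.5, 5454.5 and 3959.1 at T0 against 1776.9, 1466.4 and 949.8 at T0.5 in wild type. The mutant gave 6517.8, 5990.2 and 4660.4 against 2857.8, 2685.0 and 1368.9. Replicate 1 was the highest and replicate 3 the lowest in each group, and the falls were 3.71-fold and 2.59-fold. Other members of that broad enzyme family were AT4G24050 (1.90-fold and 1.82-fold) and AT2G29320 (2.14-fold and 1.84-fold).

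GH3.17 couples the auxin indole-3-acetic acid to amino acids, which takes it out of use. Its signal went from 3529.4, 4008.2 and 6001.6 to 1870.0, 1621.2 and 2348.6 in wild type. In chl1-5 it went from 3465.2, 3607.0 and 6570.4 to 2523.7, 2022.4 and 3029.8. Here replicate 3 was the highest array in all 4 groups, opposite to SGP1 and AT1G64590. The falls were 2.28-fold and 1.74-fold, and its log2 change in chl1-5 of -0.80 was the closest to the rule's threshold of any member.

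The remaining metabolic members fell by similar amounts. The glutaredoxin family gene AT5G11930, of a class of small redox proteins, went from 490 ± 40.1 to 194 ± 41.8 in wild type, and its chl1-5 means were 455 ± 41.2 and 234 ± 30.8. The UDP-glycosyltransferase family genes AT2G22930 and AT1G64910, whose symbols do not begin with UGT here, fell 2.21-fold and 1.83-fold in wild type. AT4G22530, of a methyltransferase family, and AT3G50280, of an acyltransferase family, fell more in chl1-5 (log2 -1.19 and -1.08) than in wild type (-1.10 and -0.94). AT2G38180, a GDSL-type hydrolase, fell 1.99-fold and 1.83-fold.

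A member of the nitrate and peptide transporter family, AT3G45680 (NPF2.3, known for moving nitrate towards the shoot under salt stress), was among the members. It read 374.5, 315.0 and 241.6 at T0 and 157.4, 148.2 and 104.4 at T0.5 in wild type. In chl1-5 it read 347.6, 308.0 and 264.4, then 162.0, 185.4 and 150.1, and the falls were 2.27-fold and 1.84-fold. AT1G68710, a P4-type ATPase that flips lipids between membrane leaflets, fell by nearly the same amount in both genotypes (log2 -1.12 in each).

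Of the 8 members with 1 locus and no role given here, 5 had array values among those to be shown. AT1G53620 read 266.4, 327.8 and 185.4 against 60.8, 59.2 and 111.4 in wild type, and 396.2, 340.6 and 172.0 against 99.8, 146.1 and 97.5 in chl1-5. AT4G18630 read 245.1, 308.1 and 244.5 against 108.5, 74.9 and 79.4, and 259.1, 348.2 and 276.2 against 171.5, 115.4 and 94.1. Both fell more in wild type (3.43-fold and 3.06-fold) than in chl1-5 (2.54-fold and 2.37-fold). AT2G34610 read 887.4, 524.0 and 324.4 against 200.7, 259.8 and 156.2 in wild type, and 902.7, 490.0 and 439.2 against 252.7, 320.9 and 167.0 in chl1-5. AT1G55790 read 771.3, 554.5 and 522.4 against 242.2, 270.8 and 156.7, and 903.7, 569.5 and 628.9 against 272.8, 469.0 and 276.1. Replicate 1 was the highest T0 array of both genes in both genotypes, but not at T0.5. AT5G48175 read 207.3, 159.1 and 166.1 against 87.9, 82.8 and 87.9 in wild type, where T0.5 was dim, and 236.0, 202.2 and 191.0 against 133.2, 112.1 and 111.8 in chl1-5. The last of these showed no overlap between the genotypes at T0.5. It is shown here for its genotype difference, so that gap is a description. The others, AT4G23880, AT5G61340 and AT3G22540, fell 2.51-fold, 2.32-fold and 1.84-fold in wild type and 1.96-fold, 1.88-fold and 2.13-fold in chl1-5.

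Some of the deepest falls belonged to probe sets without a named gene. Probe set 250286_at read 207.4, 266.1 and 196.9 against 6.7, 56.0 and 62.5 in wild type, and 244.6, 275.7 and 169.7 against 7.6, 67.2 and 31.6 in chl1-5. It was dim at T0.5 in both. Probe set 246821_at read 2644.1, 2040.1 and 1494.0 against 233.6, 386.7 and 486.6, and 2673.1, 1811.8 and 1281.8 against 213.9, 509.1 and 551.4. Probe set 253515_at read 995.7, 1478.2 and 1406.3 against 581.1, 159.8 and 164.0, and 1100.1, 1433.1 and 1316.1 against 621.7, 168.3 and 199.4. The last 2 moved in opposite ways between experiments. In replicate 1 the log2 change of 246821_at was -3.50 in wild type and -3.64 in chl1-5, deeper than in the other replicates. That of 253515_at was -0.78 and -0.82 in replicate 1, against -2.72 to -3.21 in the others. In all, 10 members were dim at T0.5 in wild type, 6 in chl1-5 and 4 in both, and none was dim at T0.

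**Figure D3:**
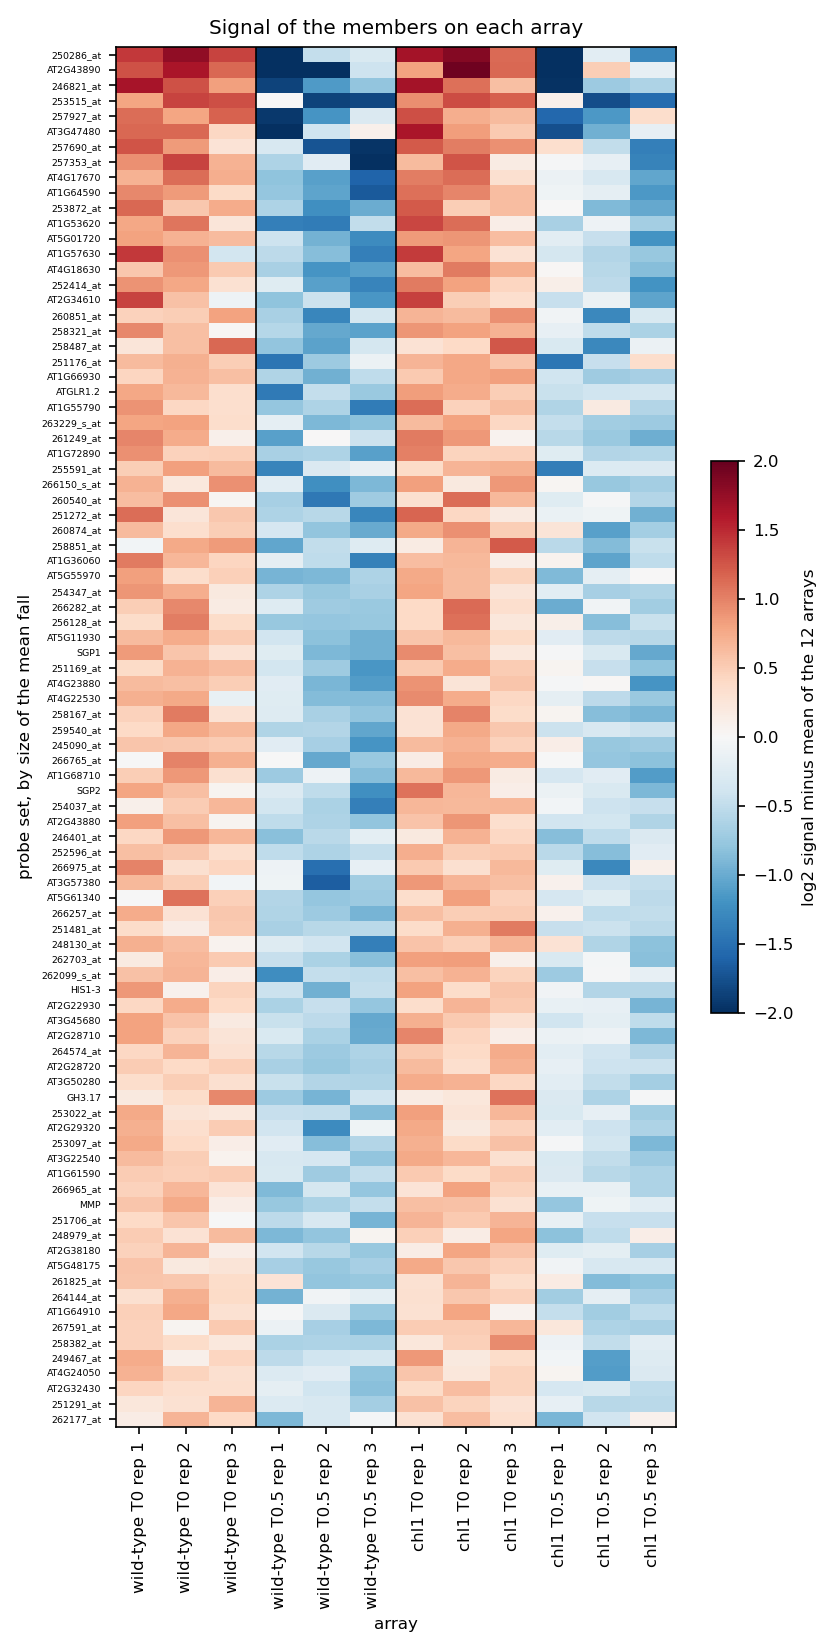
Signal of the 90 members (rows, by size of the mean fall) on the 12 arrays (columns), as log2 signal minus the member's mean over the 12 arrays, from blue (low) to red (high). The T0 columns of both genotypes are mostly red and the T0.5 columns mostly blue, with paler T0.5 columns in chl1-5.

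The spread between replicates was wide among the members. Their median SD among 3 arrays was 0.28 at T0 and 0.37 at T0.5 in wild type, and 0.25 and 0.42 in chl1-5 (log2). Over the 13723 probe sets that met the same T0 signal of 100, it was 0.16, 0.18, 0.17 and 0.18. Across all tested probe sets, the deviations of same-numbered arrays went together. Averaged over the 4 groups, a member's highest and lowest replicate numbers differed by a median of 0.49 on the log2 scale, against 0.23 over the 13723 probe sets. The wider spread of the members widens this difference by itself, so it shows no closer tie to the replicate number. Replicate 3 was the lowest array in all 4 groups for 17 members (18.9%, against 5.89% of the 13723), among them SGP1, SGP2, AT5G01720, AT1G57630 and AT3G45680. Replicate 1 was the highest in all 4 for 15 members (16.7%, against 8.28%). The other patterns were no more common among members than over the 13723. Replicate 1 was the lowest in all 4 for 4.44% (against 5.59%) and replicate 3 the highest for 4.44% (against 4.79%). Replicate 2 was the highest for 4.44% (against 5.87%) and the lowest for 3.33% (against 4.02%). The members share arrays, so these counts carry no test.

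Within each replicate number all 90 members were lower at T0.5 than at T0, in wild type and in chl1-5, which the rule ensured. The median change was -1.12, -1.28 and -1.13 in replicates 1, 2 and 3 of wild type and -0.93, -1.15 and -1.13 in those of chl1-5. Of the 6 arrays at T0.5, that of chl1-5 replicate 1 kept the highest level, a median of 0.22 below the members' own 12-array means. The other chl1-5 T0.5 arrays stood 0.48 and 0.61 below, and those of wild type 0.56 to 0.77 below.

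**Figure D4:**
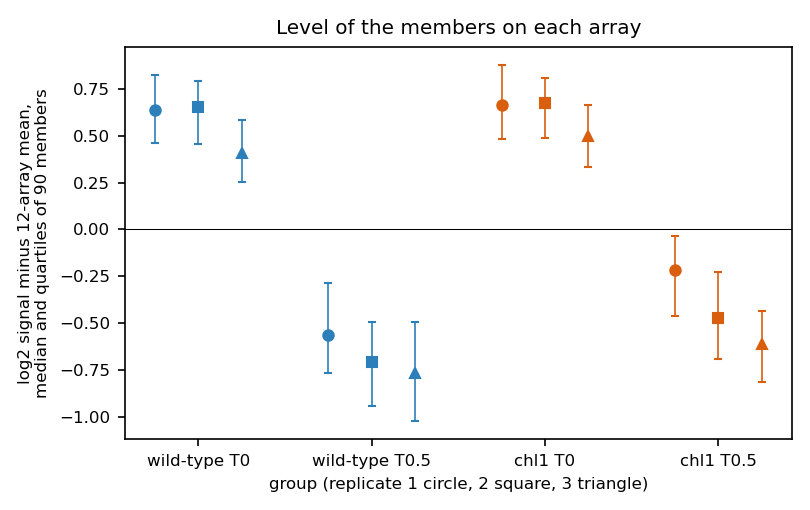
Median (symbol) and quartiles (bars) over the 90 members of log2 signal minus each member's 12-array mean (y axis), for each array by group (x axis), with circles, squares and triangles for replicates 1, 2 and 3. The replicate 3 array is the lowest of every group, and the chl1-5 T0.5 arrays lie above the wild-type T0.5 arrays of the same number.

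The genotypes were compared with a measure on which the rule set no threshold, the difference between chl1-5 and wild type averaged over T0 and T0.5. In this balanced design it is independent of both nitrate responses only where the spread is equal at T0 and T0.5. Among the members the spread was wider at T0.5, and the rule also used their T0 signals. For members the measure is therefore not free of the way they were chosen. It was tested with limma over all 14291 probe sets that passed a filter on dim signals. All 90 members passed that filter, which they could do through their T0 arrays alone. None of the 90 passed at an adjusted p under 0.05, where 0.07% of all probe sets did. An unadjusted p under 0.05 was found for 4 members and for 283 of all 14291 probe sets. With the replicate number as a block, it was found for 14 members and for 592 of all 14291. Still no member passed with the block, where 0.161% of all did.

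The direction was shared by most members even though no single one passed. In chl1-5 77 of 90 members (85.6%) had the higher averaged level, against 50.8% of all probe sets tested, and the median difference was 0.16 against 0.00 (log2). Single members ranged from -0.17 for AT1G64910 to 0.55 for 257690_at, with SEs of 0.09 to 0.59. Leaving out any 1 array left 70 to 80 of the 90 higher in chl1-5, and median scaling and quantile normalization gave 78 and 75. The members deviate together and the average holds the T0.5 part, so this count is a description.

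The 4 members with an unadjusted p under 0.05 were all higher in chl1-5. AT5G48175 was higher by 0.35 (SE 0.11, n = 3 arrays per group, limma adjusted p = 1.0, and 0.6303 with the block) and AT2G28720 by 0.22 (SE 0.09, limma adjusted p = 1.0, and 0.9097 with the block). The probe sets 258321_at and 254037_at were higher by 0.36 each (SE 0.15 and 0.16). The dehydrogenase gene AT1G64590 came closest to the threshold with the block, at a difference of 0.43 (SE 0.20, limma adjusted p = 1.0, and 0.07979 with the block), and 3 of 3 replicate numbers had it higher in chl1-5 at each time. GH3.17 differed by 0.18 (SE 0.19) and AT1G61590 by -0.01 (SE 0.09).

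With the arrays as deposited, more members were higher in chl1-5 after nitrate than before it, but this order depended on the scaling. Under median scaling 70 were higher at T0.5 and 72 at T0, and under quantile normalization 71 and 64. The values that follow are for the arrays as deposited. At T0.5 74 of 90 members were higher in chl1-5, with a median difference of 0.24, against 55.2% of all probe sets tested. At T0 it was 60 of 90 with a median of 0.05, against 46.4% of all, and without the wild-type T0 array of replicate 3 it was only 39 of 90. For the T0.5 arrays alone no member passed limma, where 0.224% of all probe sets did. With the block 1 member did, AT1G64590, higher in chl1-5 by 0.70 (SE 0.29 without the block), where 0.42% of all did. The T0.5 part is bound to the responses that chose the members, so this pass is no independent test of the member. For the same reason the smaller fall in chl1-5 (69 of 90 members, median difference 0.18) is a description. Over all tested probe sets, the change from T0 to T0.5 was the higher one in chl1-5 for 56.1%. Under median scaling 60 members had the smaller fall in chl1-5, and under quantile normalization 63. The median difference over all tested probe sets was 0.03 as deposited, -0.04 under median scaling and 0.01 under quantile normalization.

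**Figure D5:**
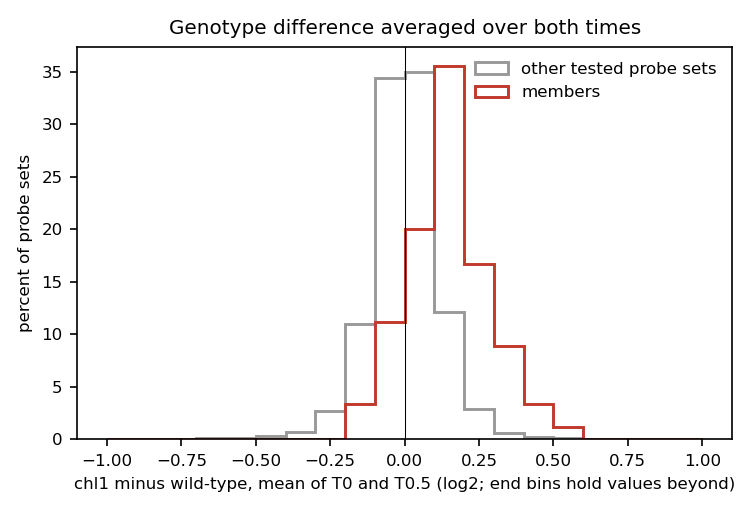
Share of probe sets in percent (y axis) by the chl1-5 minus wild-type difference averaged over T0 and T0.5 (x axis, log2, in steps of 0.1), for the 90 members in red and the other tested probe sets in grey. The members are centred at 0.16 and the others at 0.00, with wide overlap.

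The scaling of the arrays moved the size of the falls. Setting all arrays to the same median shifted the median of all tested probe sets from -0.09 to 0.01 in wild type. In chl1-5 it moved from -0.06 to -0.03. The rule then took 73 probe sets, all of them members. Under quantile normalization it took 82, of which 80 were members. Without all arrays of replicate 1, 2 or 3 it took 155, 96 and 125, of which 78, 73 and 72 were members. With fewer arrays per group the condition of no overlap is easier to meet. Just inside the thresholds were 251291_at (log2 -0.83 in wild type) and AT5G48175 (-0.82 in chl1-5). Just outside were 246927_s_at (-0.80 in wild type), AT3G22970 (-0.80 in chl1-5), and 250940_at and AT3G59850 with T0 signals of 99.3 and 98.9. A further 20 probe sets met all but the condition of no overlap, among them AT2G23270 with a mean change of -2.23.

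Few genes of the pathway lists had a named probe set. Ammonium uptake and assimilation, phosphate starvation and sugar starvation had none, and iron acquisition had 1, which was too dim to test. In the nitrate responses, 5.58% of all tested probe sets passed limma in wild type (2.14% lower at T0.5) and 3.86% in chl1-5 (1.15% lower). Of 3 auxin response genes tested, 1 fell in each genotype, GH3.5, an auxin-conjugating relative of GH3.17. Its log2 changes were -0.58 (SE 0.11, limma adjusted p = 0.007248) in wild type and -0.44 (SE 0.11, limma adjusted p = 0.04419) in chl1-5, too small for the rule. LBD16 and IAA18, also auxin response genes, stood at -0.28 and -0.21 in wild type and at 0.09 and -0.13 in chl1-5, and did not pass. The 28 transcription factor genes tested held 3 that rose in wild type (BZIP53, WRKY22 and bZIP58) and 1 that fell. In chl1-5 2 rose (BZIP53 and WRKY22) and none fell, and the medians were -0.03 in both. The one that fell was WRKY6, a factor of phosphate and senescence responses (log2 -0.76, SE 0.17, limma adjusted p = 0.02341; -0.49 in chl1-5, limma adjusted p = 0.1667). With the replicate block, 11.8% of all probe sets passed in wild type and 9.9% in chl1-5. Of the 28, 4 then fell and 3 rose in wild type, and 1 fell and 2 rose in chl1-5. Of 8 xyloglucan enzyme genes, which remodel cell walls, 1 rose in both genotypes, XTH18 (log2 1.12 and 0.95), and with the block 3 rose in wild type, and 2 rose and 1 fell in chl1-5. None of the 5 peroxidase genes passed, with medians of -0.08 and -0.01, although 1 rose in chl1-5 with the block. Of the 2 early stress and touch genes, CML38 and STZ, none passed, with medians of 1.34 and 1.36, but 1 rose in each genotype with the block. The lists of kinases and of FLZ zinc fingers could be matched to no gene by symbol.

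The arrays had already been scaled to a like overall level. The mean of each array without its outer 2% at each end lay between 499.4 and 500.6. The scaling set this, so it says nothing of array quality. Array medians lay between 176.2 and 195.5. For the GAPDH control, the 3' probe set over the 5' one, a sign of RNA integrity, gave 0.86 to 1.14 in wild-type T0, 1.03 to 1.38 in wild-type T0.5, 0.97 to 1.24 in chl1 T0 and 1.19 to 1.23 in chl1 T0.5. The same ratio was 1.68 to 2.24 for ubiquitin and 9.72 to 18.4 for actin, where chl1 T0.5 replicate 1 was the lowest array and chl1 T0 replicate 3 the highest. All 3 ratios overlap between T0 and T0.5 in each genotype, and their part in the falls was not tested. Of the cell type markers only XTH26 of root hairs, with signals of 8.0 to 76.5, and RCA of shoots, with 538.9 to 697.8, had a named probe set. XTH26 was too dim to test, while RCA lay above the array medians. These markers thus do not bear out the root tissue of the labels, and no other root marker of the lists had a named probe set. RCA changed by 0.03 in wild type and 0.02 in chl1-5 from T0 to T0.5 and did not pass limma in either.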

How the data were processed

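Per the labels, total RNA of pooled roots was hybridised to 12 one-colour ATH1 arrays. The table deposited by the authors holds linear intensity values, 1 for each probe set and array. The submitters' processing notes name MAS5 as the tool, with no version, and the values show that arrays were already scaled. Detection calls were not used. Names came from the platform annotation (13513 of 22746 non-control probe sets had 1 gene) matched to the TAIR10.1 gene table.

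Members were chosen on log2 signals with a floor of 1. For tests the floor was 0.1, and 14291 probe sets that reached the 40th percentile of the array on at least 3 arrays were fitted with limma 3.58.1 (R 4.3.3; 4 group means, 12 arrays, eBayes with trend), two-sided, with Benjamini-Hochberg adjustment over all of them. With 3 arrays per group, their number limits the precision. The replicate numbers of the titles mark independent experiments and pair the arrays: all 18 same-numbered pairs deviated together (r 0.21 to 0.77 across probe sets). The main fit has no replicate term and leaves this pairing out. All SEs, and all p-values not marked as with the block, come from it. The fit was checked on simulated data. Alternatives were other scalings, a floor of 16, no filter, the replicate block and leaving out arrays or replicate numbers.

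Array values were given for the 12 largest falls, the 3 members of highest T0 signal and members with a genotype difference at an unadjusted p under 0.05, all of 1 locus, and for a few other members chosen after their values were seen. Members and lists were chosen with earlier results of these data known. The search of promoters for motifs was not run, because no sequences were used here. The kinase and FLZ lists relied on gene descriptions, which the gene table does not hold.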

Additional observations from a re-analysis of the deposited data

How the results depend on the processing

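Of the 16 members with tabulated alternatives, none passed limma for the averaged genotype difference under any. The direction of their nitrate responses was fixed by the choice of members and says nothing of stability; 1 value moved by more than its spread, the wild-type response of AT2G28720 under median scaling (-1.05). That difference changed sign under some alternatives only for AT2G43890, AT3G47480 and AT1G61590. The rule took 90 probe sets, 85 to 120 without 1 array, and 96 to 155 without a replicate number. Fewer arrays make its condition of no overlap easier to meet. With the replicate block, the counts over all probe sets rose from 797 to 1690 for the wild-type response, from 552 to 1415 for the chl1-5 response, from 10 to 23 for the averaged genotype difference and from 5 to 17 for the difference between responses. Without 1 array these counts were 482 to 927, 260 to 854, 5 to 9 and 1 to 4, and without a replicate number 177 to 882, 74 to 800, 2 to 4 and 0 to 0, where fewer arrays were fitted. With 3 arrays per group, weak signals at T0.5 limit the size of the deepest falls.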
